A study of Pisaster ochraceus with 50 samples.

Results

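The 150 genes described here were those of the ochre sea star Pisaster ochraceus that took many reads in both dermis and tube feet and few in pyloric caecum. They were chosen from the 15 asymptomatic animals of Point Reyes. Read counts were scaled to counts per 1000000 gene reads (CPM), averaged per tissue, and genes whose dermis and tube feet means lay within 2-fold of each other were ranked by the log2 ratio of the lower of these means to the pyloric caecum mean, with 1 CPM added to each. Of 21777 genes counted, 9687 had dermis and tube feet means within 2-fold, and the 150 with the highest ratio were taken. The levels in asymptomatic animals therefore chose the genes and are given as a description, with no test. Tests were made on the symptomatic animals, whose libraries had no part in the choice, and on disease status and body size.

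Dermis is the body wall of a sea star, a tissue of epidermis and collagenous connective tissue around calcite ossicles. Tube feet are the hollow podia of the water vascular system, with which the animal walks, holds on and senses, and they too carry an epidermis, connective tissue, muscle and nerve. The pyloric caeca are paired digestive glands in each arm that secrete enzymes and store nutrients. The files do not pair gene IDs with names, so the genes are given by ID, without function, position or sequence, and the tissue labels could not be checked against named marker genes.

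The animals were wild-collected at McClures Beach (15) and Lifeboat House (2). The comparisons used 14 dermis, 13 tube feet and 15 pyloric caecum libraries of asymptomatic animals, and 2 libraries of each tissue from symptomatic animals, which showed sea star wasting disease. The symptomatic animals were M0D055233U, a large brown animal of McClures Beach, and M0D055236X, a medium orange animal of Lifeboat House. Among asymptomatic animals, small, medium, large and x-large classes gave 3, 3, 5 and 3 dermis libraries and 2, 3, 5 and 3 tube feet libraries. The small animals were all orange, while the medium and x-large classes held both orange and brown animals. No large asymptomatic animal was orange: M0D055234V, of Lifeboat House, was purple and the others were brown. Of the asymptomatic animals, 2 were feeding, M0D055231S and M0D055232T. Another 2 tube feet libraries, 1 of each disease label, came from 1 animal at Friday Harbor and were kept apart. Ages are not in the labels.

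Libraries held 373930 to 1105416 gene reads, fewest in dermis, so 1 read is about 1 to 3 CPM. The dermis library of M0D055226N stood apart from the other asymptomatic dermis libraries. It had the lowest value of 14 for 80 of the 150 genes (53.3%), and also for 48.2% of the 2637 genes with a dermis mean in the same range. Without this animal the rule returned 146 of the 150 genes. Because tissue pieces were sequenced in bulk, fewer cells of a type and less RNA per cell cannot be told apart.

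Together the 150 genes took several percent of all gene reads in dermis and tube feet and a few hundredths of a percent in pyloric caecum. Their summed share in asymptomatic animals was 3.25% to 7.72% in dermis, with a mean of 5.83% ± 1.25 (SD, n = 14), and 4.29% to 6.55% in tube feet, with a mean of 5.77% ± 0.657 (n = 13). In pyloric caecum it was 0.0249% to 0.0652%, with a mean of 0.0421% ± 0.0127 (n = 15). The same sums in libraries that had no part in the choice were 4.75% and 3.98% in symptomatic dermis, 7.16% and 5.82% in symptomatic tube feet, and 0.128% and 0.0521% in symptomatic caecum, in each case M0D055233U before M0D055236X. Both symptomatic dermis values lay inside the asymptomatic range, 1 of the tube feet values lay above it, and so did 1 of the caecum values.

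**Figure D1:**
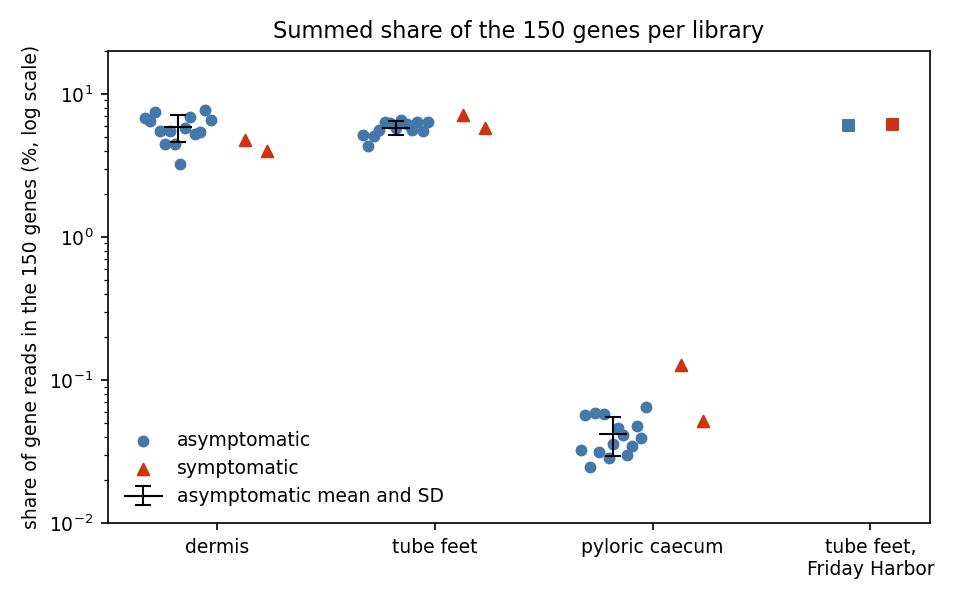
Share of gene reads (percent, log axis) taken by the 150 genes in each library, by tissue. Circles are asymptomatic libraries with their mean and SD, triangles symptomatic libraries and squares the Friday Harbor libraries, in blue for the asymptomatic and red for the symptomatic label. Dermis and tube feet libraries lie between 3.25% and 7.72%, and caecum libraries between 0.0249% and 0.128%.

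Single genes of the set spanned a wide range of levels in both outer tissues. Mean CPM in asymptomatic animals ran from 32.4 to 5517 in dermis (median 125) and from 28.8 to 4491 in tube feet (median 129), against 0 to 44.7 in caecum (median 0.765). CPM is not divided by gene length, so it says which genes took most reads, not which gave most transcripts. The dermis mean was under 100 CPM in 65 genes, from 100 to under 1000 CPM in 71 and at least 1000 CPM in 14. The 10 genes with most reads held 45.1% of the set's reads in dermis and 46.8% in tube feet. The dermis mean was the higher of the pair in 79 genes and the tube feet mean in 71, with a median ratio of 1.02.

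Absence from caecum held in the strict sense for few of the genes, and most were low there instead. In the 15 asymptomatic caecum libraries together, 5 genes had no read, 39 had 1 to 3 reads and 106 had more than 3. The caecum mean was under 1 CPM in 85 genes, from 1 to under 10 CPM in 54 and at least 10 CPM in 11, and 19 genes had a read in each caecum library. The genes with no read were g9570, g9496, g17551, g14784 and g10325. Against the floor that 3 reads over these libraries set (0.232 CPM), g9570 was at least 409-fold higher and g14784 at least 124-fold higher in the lower of dermis and tube feet. In the other tissues detection was near complete, since 141 genes had a read in each asymptomatic dermis library and 146 in each asymptomatic tube feet library. For 135 of the 150 genes, the lowest dermis or tube feet library lay above the highest caecum library. The rule used these same libraries and favours such a separation, which was not counted over all genes.

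**Figure D2:**
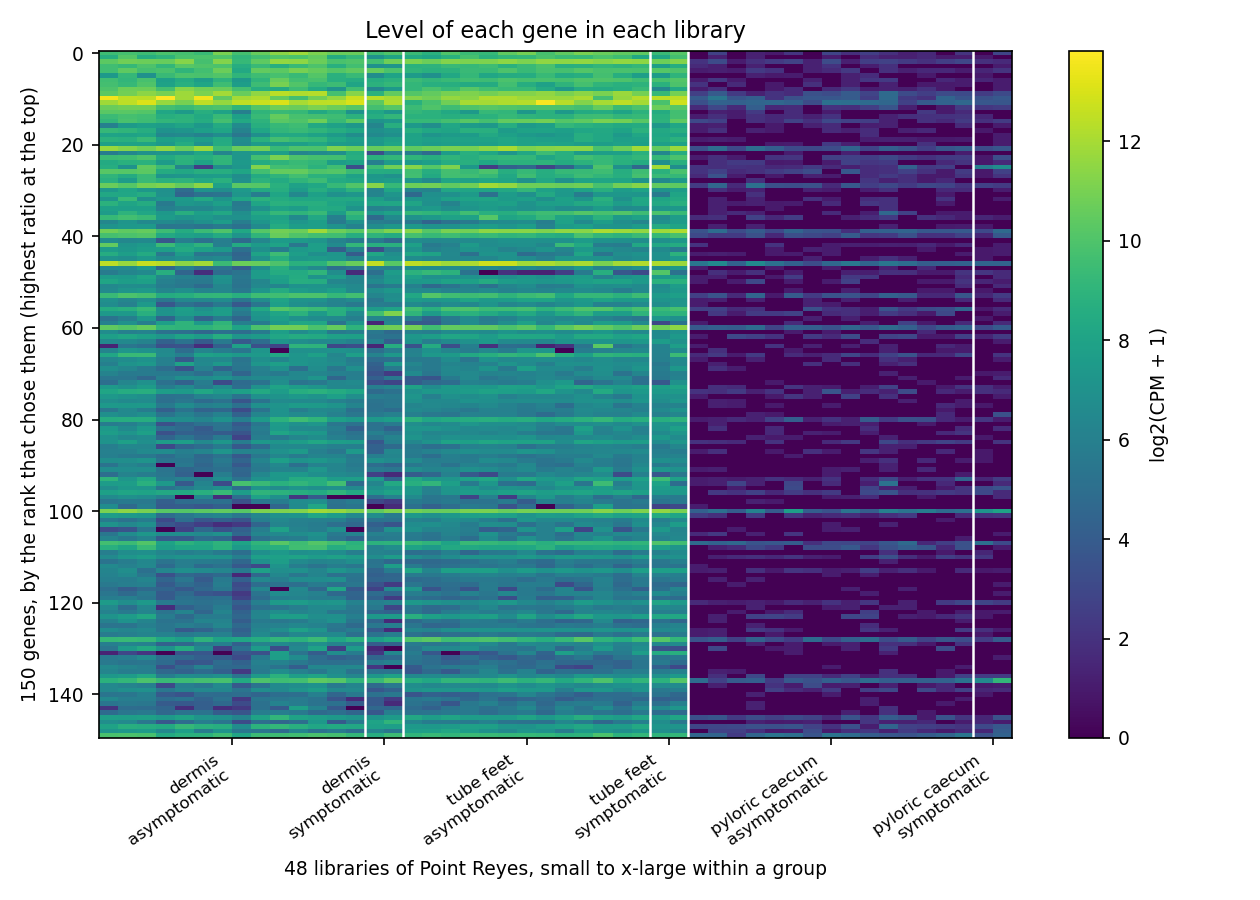
Level of each of the 150 genes (1 line per gene, ordered by the ratio that chose them) in each of the 48 Point Reyes libraries, as log2(CPM + 1). Columns are grouped by tissue and disease status. Caecum columns are dark for nearly all genes, the brightest line of asymptomatic caecum being that of g6798, and the darkest dermis column among the large asymptomatic animals is M0D055226N.

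The gene with the highest ratio was g18432, a score of 8.51 on the log2 scale. Its CPM in asymptomatic animals was 649 to 3586 in dermis (median 1276), 449 to 2141 in tube feet (median 1333) and 0 to 6.22 in caecum (median 1.99). Next in order was g8052, with 356 to 1434 CPM in dermis, 281 to 952 in tube feet and 0 to 2.42 in caecum. The third, g8010, was at 622 to 3059 CPM in dermis, 1684 to 3104 in tube feet and 1.04 to 8.29 in caecum. In each of these genes all caecum libraries lay below all dermis and tube feet libraries, and dermis and tube feet overlapped. The rest of the leading 10 were g20980, g13987, g8046, g1209, g7927, g20981 and g13902, with scores from 8.25 down to 7.90.

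The genes that took most reads were g15057, g536, g9366, g13902 and g6798. Dermis and tube feet means were 5517 ± 2118 and 4269 ± 3150 CPM for g15057 (SD, n = 14 and 13) and 5486 ± 4293 and 3298 ± 1174 CPM for g536. The caecum values of these genes were low in proportion but not near 0, with 5.38 to 33.2 CPM for g15057 and 2.99 to 43.8 CPM for g536. The highest caecum mean of the set was that of g6798, at 44.7 ± 52.4 CPM (n = 15), with 10.4 CPM in the lowest and 222 CPM in the highest library. That highest value was still below the lowest tube feet value of g6798, 1534 CPM, and the lowest dermis value, 1104 CPM. Next in caecum mean were g9366 at 34.9, g821 at 22.6, g15057 at 19.8 and g864 at 17.3 CPM.

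At the edge of the set the values changed little. The last genes inside were g7477 with a score of 4.70, g18488 with 4.68 and g821 with 4.66, and the first outside were g13605 with 4.66, g11038 with 4.66 and g9935 with 4.64. The lowest score inside corresponds to a 25.4-fold ratio of means with 1 CPM added, the median to 49.8-fold and the highest to 365-fold.

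The genes differed in how steady they were from animal to animal. The SD of log2(CPM + 1) over asymptomatic libraries had a median of 0.93 in dermis, from 0.42 to 2.93, and of 0.49 in tube feet, from 0.16 to 3.33. Genes with means in the same range had a median SD of 0.75 in dermis (2637 genes) and 0.43 in tube feet (4174 genes). The steadiest was g12198, at 95.6 to 364 CPM in dermis and 194 to 281 CPM in tube feet, followed by g12335 and g6798. The most variable was g7933, at 2.21 to 520 CPM in dermis (median 85.1) and 0 to 606 CPM in tube feet (median 12.5). Its neighbour by ID, g7934, ranged from 4.97 to 2328 CPM in dermis and from 4.47 to 2519 CPM in tube feet. In tube feet g1212 ranged from 1.51 to 1317 CPM (median 31.4). For these genes both outer tissues held libraries near the caecum level and libraries far above it.

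Some libraries carried the set as a whole up or down. In dermis, the feeding large animal M0D055232T had the highest value for 49 genes (32.7%), against 9.52% of genes in the same range of means. In tube feet, the small animal M0D055220H had the lowest value for 44 genes (29.3% against 10.5%), and the x-large animal M0D055228P the highest for 37 (24.7% against 13.7%). The low dermis of M0D055226N was shared by genes at large, as given above, whereas the tube feet of the same animal were lowest for 6 genes only.

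Levels of the genes moved together across the 27 asymptomatic dermis and tube feet libraries, after the mean of each tissue had been taken off. Over the 11175 pairs of genes the median correlation of log2(CPM + 1) was 0.36, and 33.6% of pairs reached 0.5. These points share libraries and depth, so the correlations are a description. The same was not computed over all pairs of other genes, so it is not shown to be particular to the set. Grouped at an average correlation of 0.5, the genes fell into 25 groups, of which 6 held at least 5 genes and 9 held a single gene. The largest had 79 genes, led by g1209, g7927 and g6797, and was lowest in M0D055226N dermis (-1.76 on the log2 scale from the tissue mean) and highest in M0D055232T dermis (1.07). The groups of 10 genes around g18432 and of 8 genes around g8010 had the same lowest and highest libraries. These libraries were also shifted for genes at large. Over 2637 genes of like dermis means, the median distance from the tissue mean was -1.08 in M0D055226N dermis and 0.305 in M0D055232T dermis. A group of 5, g536, g326, g9365, g537 and g9366, was instead lowest in M0D055234V dermis (-1.89) and highest in M0D055219G dermis (1.53). Another 5, g8052, g8046, g13902, g1830 and g8050, were lowest in the tube feet of the small animal M0D055220H (-1.52).

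Some of the closest pairs in this sense were neighbours by ID number. The closest partner of g7933 was g7934 (r = 0.94 over 27 libraries), that of g9366 was g9365 (r = 0.93), that of g1209 was g1480 (r = 0.92) and that of g821 was g6797 (r = 0.90). The set held 20 pairs with consecutive ID numbers, with a median correlation of 0.74, from 0.48 to 0.94. The 503 consecutive pairs among the 2564 genes with means at least as high as the lowest of the set had a median of 0.41. A consecutive ID number within the same set was held by 38 of the 150 genes (25.3%) and by 35.1% of the 2564 genes. These sets differ in size, so the shares cannot be compared directly. In all, 51 of the 150 genes lay in 21 runs whose members were at most 3 ID numbers apart, such as g7927, g7930, g7933, g7934 and g7936, or g115, g116 and g117. Runs were not counted over other genes. The sources used here do not say whether ID order follows genome position, or how reads shared by neighbouring or similar genes were counted.

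Within single animals the pattern was the same as in the means for caecum and less so between the outer tissues. In the 12 asymptomatic animals with all 3 tissues, caecum was below both other tissues for 146 to 150 of the 150 genes and more than 16-fold below both for 133 to 148. The same animals chose the genes, so the rule favours a low caecum in each, and these counts are a description. Dermis and tube feet lay within 2-fold for only 37 to 124 of the genes (median 95), although the means over animals were within 2-fold for all by the rule. The lowest of these counts was that of M0D055226N, whose dermis stood apart. Dermis was below tube feet for 32 to 137 genes (median 86). In the symptomatic animals dermis was below tube feet for 119 genes in M0D055233U and 127 in M0D055236X, and the pair was within 2-fold for 64 and 69 genes.

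The tissue difference was then tested in the symptomatic animals, on the 14791 genes that averaged 1 CPM or more over their 6 libraries, all 150 genes among them. Genes were called at a false discovery rate under 0.01 in edgeR's quasi-likelihood test. Against dermis, 124 of the 150 genes were lower in caecum and none was higher, where 3.12% of all genes tested were called lower and 6.49% were called in either direction. Against tube feet, 139 were lower and none was higher, where 4.64% of all genes were called lower and 8.82% in either direction. The 124 genes lower than in dermis were all lower than in tube feet too, which made them 124 of 286 such genes in the whole table. The median log2 fold change of the 150 was -6.39 against dermis and -6.86 against tube feet, and 0.00 and -0.19 over all genes tested. With genes that had no caecum read set at the bound that 3 reads allow (47 and 50 genes), the medians were -5.16 and -6.11.

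The largest fitted difference against dermis was that of g7067, with 0 CPM in both symptomatic caecum libraries and 292 and 281 CPM in dermis, at least 195-fold higher in dermis (adjusted p = 9.67e-06, edgeR). Next was g19439, with 1.07 and 0 CPM in caecum, a single read, and 2261 and 797 CPM in dermis, a ratio of 2975 whose exact 95% interval from counting alone reaches down to 533 (adjusted p = 3.68e-06, edgeR). The third, g116, had no caecum read and 167 and 299 CPM in dermis. Against tube feet the largest was that of g14440, with no caecum read and 645 and 942 CPM in tube feet, at least 542-fold higher there. It was followed by g116, with 803 and 368 CPM in tube feet, and g5908, with 419 and 351 CPM. In none of these did caecum overlap the tissue it was compared with. The adjusted p of g5908 was 0.000138 and rose to 0.076 when 1 symptomatic animal was left out. The gene with the highest asymptomatic ratio, g18432, was at 6.41 and 0 CPM in symptomatic caecum against 1035 and 742 in dermis and 1159 and 680 in tube feet.

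**Figure D3:**
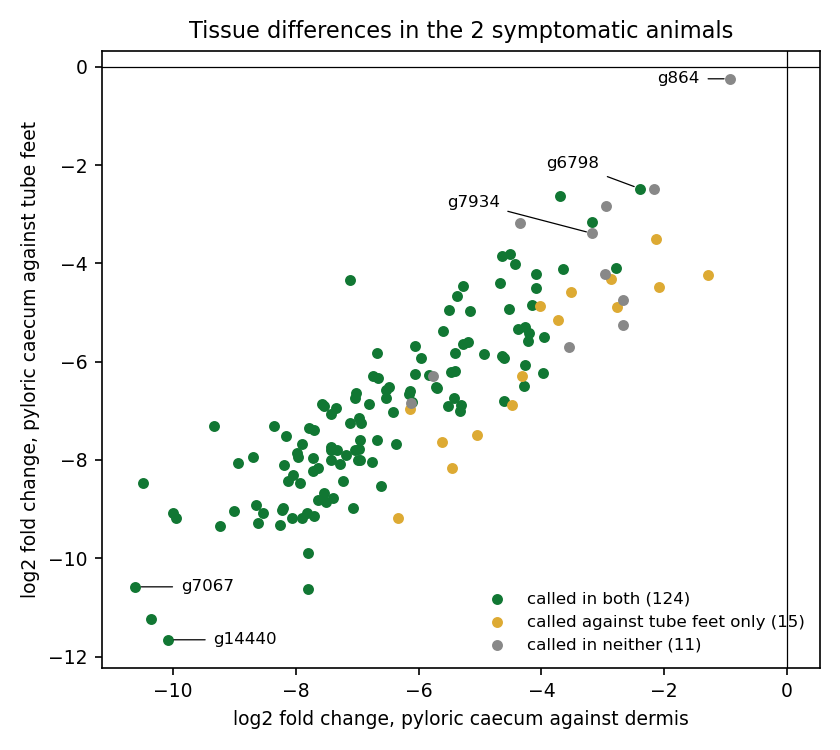
Fitted log2 fold change of pyloric caecum against dermis (horizontal) and against tube feet (vertical) for the 150 genes in the symptomatic animals. All points lie below 0 on both axes; 124 genes were called in both comparisons, 15 against tube feet only and 11 in neither, and g864 lies nearest to 0.

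Against dermis 26 genes were not called, and against tube feet 11. Among the genes not called, g864 had the most reads in symptomatic caecum, at 562 and 88.7 CPM in symptomatic caecum, 1276 and 669 in dermis and 1104 and 478 in tube feet, with log2 fold changes of -0.93 ± 0.65 (SE) and -0.25 ± 0.65. Next was g7934, at 108 and 57.9 CPM in caecum, with log2 fold changes of -3.17 ± 0.99 and -3.39 ± 1.00. With M0D055233U left out, 77 genes were called against dermis and 94 against tube feet. With M0D055236X left out, the counts were 83 and 117.

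Between dermis and tube feet of the symptomatic animals none of the 150 genes was called, where 2.24% of all genes were. At an unadjusted p under 0.05 there were 36 of the 150 in edgeR's test, and 19.6% of all genes. DESeq2 called 1. The median log2 fold change, dermis against tube feet, was -0.54 in the set and -0.27 over all genes, with 109 of the 150 below 0. The animals are the same in both tissues, and with the animal as a block 11 of the 150 genes were called (2 higher and 9 lower in dermis), where 5.67% of all genes were called in that fit.

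Disease status was compared within tissue. The asymptomatic libraries that chose the genes are the reference here, so the choice itself favours lower values in symptomatic dermis and tube feet. In dermis 12 of the 150 genes were called between symptomatic and asymptomatic animals, 2 higher and 10 lower. Of the 14257 genes tested, 2.27% were called, 1.81% higher and 0.463% lower. The genes tested averaged 1 CPM or more. Means of the 150 in asymptomatic animals were at least 32.4 CPM in dermis and 28.8 CPM in tube feet. Shares of all genes are therefore not matched for level, here, in tube feet and in the comparisons by size. The median log2 fold change was -0.60 in the set and -0.18 over all genes, and 121 of the 150 genes were below 0 (80.7%, against 56.7% of all genes).

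The genes that were higher were g13032 and g19439. Asymptomatic dermis held 7.80 to 163 CPM of g13032 (median 36.4), and symptomatic dermis 526 and 262 CPM. The log2 fold change was 3.02 ± 0.47 (adjusted p = 5.5e-05, edgeR). Asymptomatic dermis held 46.8 to 475 CPM of g19439 (median 180.2), and symptomatic dermis 2261 and 797 CPM. Its log2 fold change was 2.80 ± 0.39 (adjusted p = 9.1e-06, edgeR). Both symptomatic values of both genes lay above all asymptomatic values, and in both genes M0D055233U was the higher of the pair. In tube feet the same genes did not stand apart, with 491 and 477 CPM of g19439 against 165 to 533 in asymptomatic animals.

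Among the genes that were lower, the largest fitted change was that of g6776, with 9.83 to 88.2 CPM in asymptomatic dermis (median 56.9) and 0 and 3.56 CPM in symptomatic dermis, a log2 fold change of -4.56 ± 0.96 (adjusted p = 0.003, edgeR). It rests on 2 reads, and the ratio of reads, 27.5, has an exact 95% counting interval from 7.57 to 228. Next was g21714, with 182 to 453 CPM in asymptomatic dermis (median 287) and 34.7 and 26.7 CPM in symptomatic dermis, a log2 fold change of -3.28 ± 0.52 (adjusted p = 8.6e-05, edgeR). The third was g12490, with 9.75 to 119 CPM against 4.33 and 7.12 CPM. Symptomatic and asymptomatic values did not overlap in these genes. The rest of the 10 were g20980, g12334, g8868, g12335, g6206, g11981 and g9156, with log2 fold changes from -2.82 to -2.20. Larger fitted changes that were not called belonged to g9359, g14338 and g3030, each with a wide spread among asymptomatic animals, g9359 for example at 4.60 to 356 CPM.

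The number of calls in dermis fell when either symptomatic animal was left out. Without M0D055233U 1 gene was called, which was none of the 12, and without M0D055236X 3 of the 12 were called, 2 higher and 1 lower. Within the McClures Beach animals alone, where M0D055233U is the only symptomatic animal, 4 of the 12 were called, 2 higher and 2 lower. The higher genes g13032 and g19439 were called in both of these fits, and without M0D055233U their adjusted p were 0.0208 and 0.0347 (edgeR). Of the lower genes named with values, g6776, g21714 and g12490 were called in neither fit that left out a symptomatic animal. With batch as a covariate 12 were called, 10 of them the same. DESeq2 called 20, 2 higher and 18 lower. The share of all genes that DESeq2 called is not given, so the larger count is not shown to be particular to the set. Without the dermis library of M0D055226N, 13 were called, all 12 among them.

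In tube feet none of the 150 genes was called between symptomatic and asymptomatic animals by edgeR, where 0.112% of 15176 genes were called. At an unadjusted p under 0.05 there were 35 of the 150 genes and 8.71% of all genes, and DESeq2 called 4, 1 higher and 3 lower. The median log2 fold change was 0.20 in the set and -0.03 over all genes, with 92 of the 150 above 0. The medians of the set thus had opposite signs in dermis and tube feet.

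In symptomatic dermis, 21 genes in M0D055233U and 28 in M0D055236X lay below the range of the asymptomatic libraries (14.0% and 18.7%, against 5.45% and 5.10% of genes that averaged 1 CPM or more), and 4 and 2 lay above it (2.67% and 1.33%, against 11.2% and 6.92% of genes). In symptomatic tube feet, 31 and 23 genes lay above the range (20.7% and 15.3%, against 6.55% and 10.7% of genes) and 7 and 16 below (4.67% and 10.7%, against 5.33% and 6.81% of genes). The shares of genes are not matched for level, since the lowest mean in the set was 32.4 CPM in dermis and 28.8 CPM in tube feet. A gene with no read in some asymptomatic library cannot lie below the range. The shares below the range therefore cannot be compared directly between the set and genes at large. Dermis and tube feet of 1 animal are not independent samples, and these shares carry no test.

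**Figure D4:**
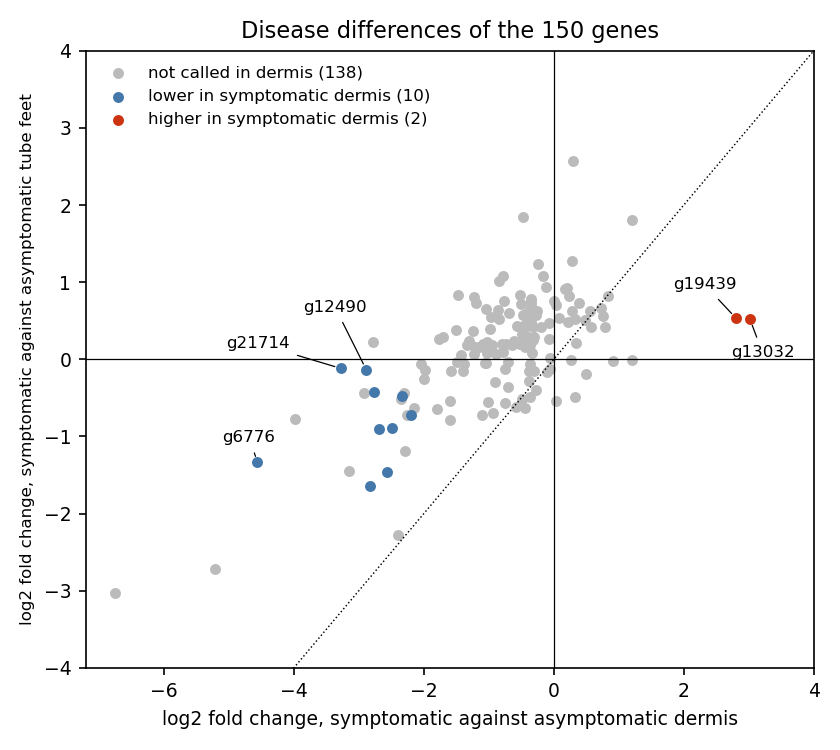
Fitted log2 fold change of symptomatic against asymptomatic animals in dermis (horizontal) and tube feet (vertical) for the 150 genes; the dotted line marks equal change. Red and blue points are the 2 genes higher and the 10 genes lower in symptomatic dermis; most points lie above the dotted line.

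Whether the disease difference was unlike in the 2 tissues was tested directly as an interaction over 15144 genes. Of the 150 genes, 1 was called, g21714, with the higher difference in tube feet, where 0.211% of all genes were called and 0.0528% in that direction. Its level fell in symptomatic dermis as given above, while symptomatic tube feet held 187 and 169 CPM against 92.2 to 348 CPM in asymptomatic tube feet. The difference of the log2 fold changes, tube feet minus dermis, was 3.14 ± 0.58 (adjusted p = 0.0024, edgeR). It was 3.10 and still called with the animal as a block. Over the 150 genes the median difference was 0.96, and 0.17 over all genes, with 129 of the 150 above 0. Without M0D055233U or M0D055236X, or with McClures Beach animals only, the difference of g21714 kept its sign and size but was not called, with adjusted p from 0.134 to 0.27.

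The asymptomatic caecum libraries, whose low level chose the genes, are the reference in pyloric caecum too, so the choice favours higher values in symptomatic caecum. The low level let 61 of the 150 genes through the filter of 1 CPM, and genes that passed only through the symptomatic libraries had to differ. Among them 2 were higher in symptomatic animals and none was lower, where 2.75% of 13205 genes were called and 2.24% were higher. They were g864 and g7934, which were also not called lower in caecum in the comparison of tissues. Asymptomatic caecum held 4.12 to 37.1 CPM of g864 (median 16.5), and symptomatic caecum 562 and 88.7 CPM, a log2 fold change of 4.21 ± 0.41 (adjusted p = 2.3e-07, edgeR). For g7934 the values were 0 to 18.8 CPM (median 2.74) and 108 and 57.9 CPM, a log2 fold change of 4.53 ± 0.50 (adjusted p = 1.2e-06, edgeR). Both symptomatic libraries lay above all asymptomatic ones in both genes. The gene with most reads in asymptomatic caecum, g6798, was at 259 and 140 CPM in symptomatic caecum against 10.4 to 222 CPM, a log2 fold change of 2.32 ± 0.60 (adjusted p = 0.018, edgeR) that was not called, and its groups overlapped. With batch as a covariate g864 was no longer called (adjusted p = 0.0213), and g7934 was.

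The raised caecum share of M0D055233U was largely g864. This gene gave 526 reads there, 43.9% of the reads of the set, and without it the share was 0.0719%, against 0.0234% to 0.0635% in asymptomatic caecum without it. In M0D055236X, g864 gave 98 reads, and the share without it was 0.0432%, inside the asymptomatic range. Levels of g864 in dermis and tube feet were not called different between symptomatic and asymptomatic animals, and neither were those of g7934. Whether pieces of another tissue were carried into the caecum samples was not tested; of the set, 68 genes in M0D055233U and 81 in M0D055236X had no caecum read, among them g7067, g116 and g14440 in both.

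**Figure D5:**
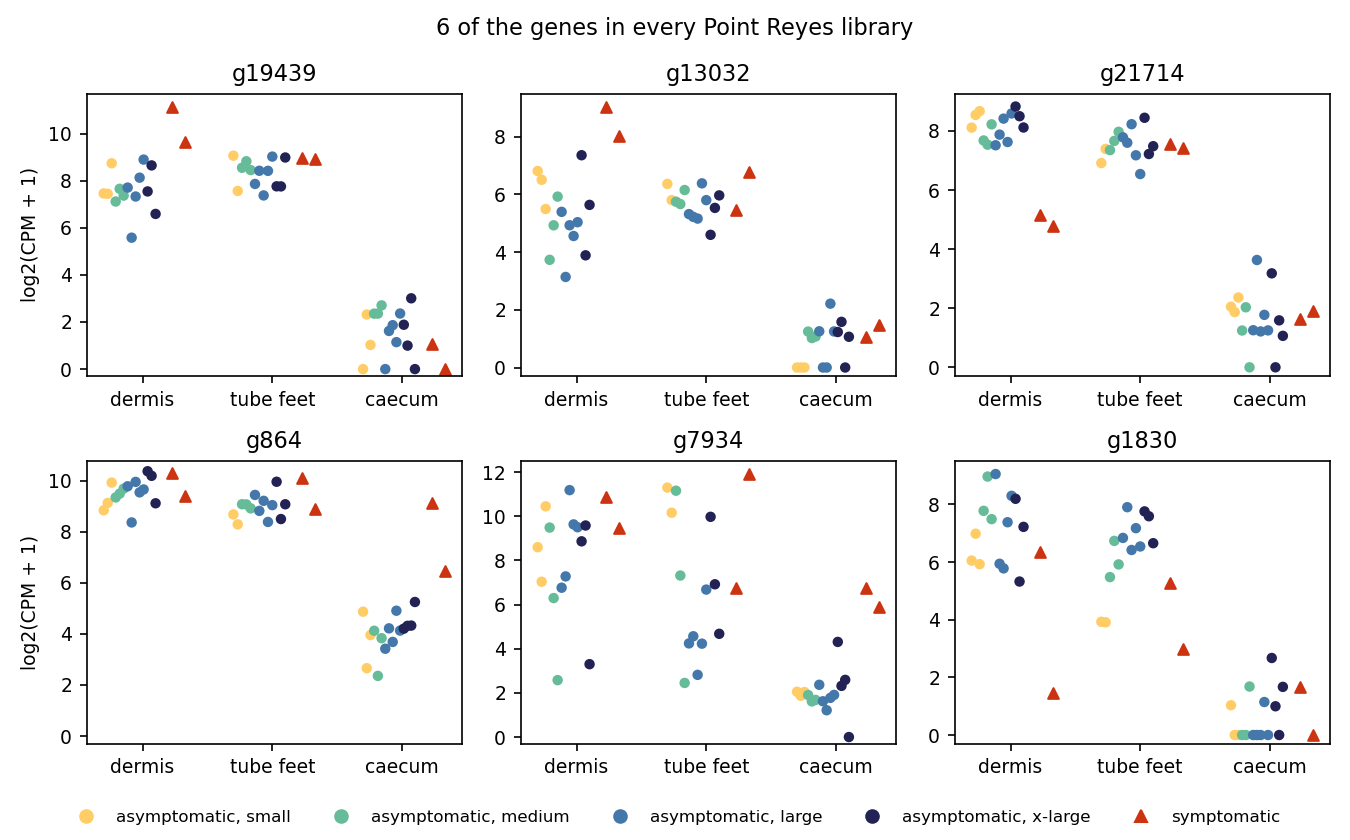
Level, as log2(CPM + 1), of 6 genes in each Point Reyes library by tissue. Circles are asymptomatic libraries coloured by size class and triangles symptomatic libraries. Symptomatic dermis stands above for g19439 and g13032 and below for g21714, symptomatic caecum stands above for g864 and g7934, and tube feet of small animals lie low for g1830.

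Body size was compared among asymptomatic animals. The libraries compared are those whose tissue means chose the genes, although the rule did not use size class. Colour differed between the size classes, as given above, and was not in these fits, so the effects of size and colour cannot be fully told apart. In dermis none of the 150 genes was called by edgeR between small and x-large animals, where 0.134% of 14231 genes were, or between small and medium together and large and x-large together, where 0.162% were. At an unadjusted p under 0.05 in edgeR's test there were 21 and 27 of the 150, and 6.43% and 9.66% of all genes. DESeq2 called 1 and 2 of the 150.

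In tube feet 1 gene was called between small and x-large animals, against 0.145% of 15200 genes, and it was lower in small ones (0.0263% of all genes were). Between small and medium together and large and x-large together, 3 were called, all lower in the smaller animals, where 0.586% of all genes were called and 0.125% were lower. The gene lower in both was g1830, at 14.2 and 14.0 CPM in small animals, 43.6 to 106 CPM in medium, 84.6 to 239 CPM in large and 99.8 to 216 CPM in x-large animals. Its log2 fold change was -3.55 ± 0.55 for small against x-large (adjusted p = 0.0047, edgeR) and -2.31 ± 0.33 for the wider groups (adjusted p = 0.0016, edgeR). Small and x-large animals did not overlap, and medium and large animals did. With 2 small and 3 x-large libraries such separation was common, since 68 of the 150 genes did not overlap. It was not counted over all genes. In dermis g1830 varied without that order, at 59.9 to 126 CPM in small and 39.1 to 292 CPM in x-large animals. In tube feet of the symptomatic animals it was at 37.4 CPM in the large and 6.87 CPM in the medium one.

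The others were g15057 and g18432. Tube feet of small animals held 432 and 889.7 CPM of g15057, medium animals 1840 to 4160 CPM, large animals 2488 to 13241 CPM and x-large animals 4018 to 5498 CPM, a log2 fold change of -1.92 ± 0.38 for the wider groups (adjusted p = 0.0099, edgeR). Tube feet held 449 to 1032 CPM of g18432 in small and medium and 878 to 2141 CPM in large and x-large animals, a log2 fold change of -1.22 ± 0.24 (adjusted p = 0.0094, edgeR). The groups overlapped in both genes. Both adjusted p lie close to the threshold, and the calls were lost in 10 of 20 alternatives for g15057 and 13 of 20 for g18432, most of them with 1 animal left out. Without M0D055219G or without M0D055220H, the only small animals with tube feet, none of the 150 genes was called in either comparison. The call of g1830 between small and x-large animals was also lost without M0D055228P or M0D055230R. The count for the wider groups was 6 without M0D055228P or without M0D055231S. In dermis the log2 fold change of g18432 for the wider groups was -1.16 ± 0.27 (adjusted p = 0.038, edgeR), which did not pass.

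The summed share of the set in tube feet was 4.71% ± 0.589 in small (n = 2), 5.67% ± 0.626 in medium (n = 3), 6.10% ± 0.424 in large (n = 5) and 6.04% ± 0.371 in x-large animals (n = 3). In dermis it was 6.90% ± 0.532 in small (n = 3), 5.16% ± 0.596 in medium (n = 3), 5.56% ± 1.75 in large (n = 5) and 5.87% ± 0.934 in x-large animals (n = 3). Small animals thus had the lowest mean in tube feet and the highest in dermis, and overlapped the medium class in tube feet and the large and x-large classes in dermis. These sums follow a few genes with many reads, and they were not tested.

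The Friday Harbor animal, which had no part in the choice, held the set at a like summed level. Its tube feet libraries gave it 5.96% of gene reads under the asymptomatic and 6.09% under the symptomatic label. Of the 150 genes, 109 and 130 lay inside the range of the asymptomatic Point Reyes tube feet (72.7% and 86.7%, against 83.6% and 86.2% of genes). In the library with the asymptomatic label 25 lay below that range (16.7%, against 7.86% of genes). The genes compared averaged 1 CPM or more, so these shares too are not matched for level. The gene farthest from that range was the variable g1212, with 4428 CPM in the asymptomatic library, against a highest value of 1317 CPM at Point Reyes, and 516 CPM in the symptomatic library. With 1 library of each label from 1 animal there was no test.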

How the data were processed

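Per the labels' protocols, extraction used the Qiagen RNeasy Mini Kit and library preparation the TruSeq RNA Library Prep Kit v2 of Illumina. Trim Galore 0.4.4, TopHat2 2.0.13, SAMtools 0.1.19 and edgeR are named in the submitters' processing notes. The authors deposited raw counts per gene, 21777 genes and 5 summary lines per library. The summary lines, of which reads that met no gene made up 70.5% to 88.4% of the counted lines, stayed out of totals and tests. No source used here gives the read counter or its strand setting, and the genome build and annotation are likewise not stated in them.

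CPM was computed as counts per 1000000 gene reads. Tests used edgeR 4.0.16 in R 4.3.3 (quasi-likelihood F-test, TMM, genes averaging 1 CPM or more over the libraries fitted, Benjamini-Hochberg false discovery rate under 0.01 over all genes tested), settings stated in the study's design text. Symptomatic tissues were compared in 1 fit of 6 libraries, disease status and size within each tissue, and the interaction in 1 fit of dermis and tube feet. A standard error is the size of the log2 fold change over the root of its F statistic. Some of the tests were also run on simulated counts. These were drawn independently for each library, so they do not show how the tests behave when tissues share an animal. Alternatives were DESeq2 1.42.0, other normalizations, filters and thresholds, covariates, single sites, the animal as a block, and leaving out each animal. Intervals and floors cover counting error only.

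Tissues of 1 animal share its ID in the labels. Deviations from the tissue means correlated between dermis and tube feet of the same animal with r from 0.0389 to 0.215 (12 animals), between dermis and caecum from -0.00947 to 0.174 (14 animals) and between tube feet and caecum from 0.0444 to 0.152 (13 animals).

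The genes and comparisons were chosen with earlier results of these data known. Named are the 10 genes with the highest score, the 5 with most reads, the 5 with the highest caecum mean, 3 on each side of the edge, the 3 most and 3 least variable, and up to 3 called per direction and comparison with at least 10 CPM in the higher group. Others were named after their values were seen.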

Additional observations from a re-analysis of the deposited data

Results flagged for a closer look

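The tube feet library of the large animal M0D055227O had 13241 CPM of g15057, far above the other 4 large asymptomatic animals, which lay between 2488 and 5171 CPM. Its distance from the others exceeded Dixon's 95% limit for 5 samples. The check was made 7 times. It took the summed share in each tissue and size class of at least 4 asymptomatic libraries, and g1830, g15057 and g18432 in large tube feet. These genes are the ones called by size in tube feet, a comparison that includes the same libraries. Chance gives about 1 such value in 20 independent checks, which these are not.

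The disease difference of g21714 was unlike in tube feet and dermis by the interaction test, by 3.14 on the log2 scale. The call needs both symptomatic animals.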

How the results depend on the processing

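The counts of caecum genes called in symptomatic animals stayed within 1.5 times under each of 10 alternatives, except 77 against dermis without M0D055233U. Leaving out 1 animal gave 77 to 83 against dermis and 94 to 117 against tube feet. With the animal as a replicate block the counts were 136, 145 and, for dermis against tube feet, 11. The last was also 6 at a false discovery rate under 0.05, 1 with DESeq2's size factors or its Wald test, 8 without a filter, 2 in a fit of all 48 libraries and 5 in that fit with the animal as a block, an alternative added after seeing the data. It stayed at 0 with either animal left out. The interaction kept its 1 gene under the block. Leaving out a symptomatic animal leaves 1 library per tissue, which is assumed to vary like the other groups; for the tissue comparisons that fit held the other libraries of the 48.

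Disease in dermis gave 23 at 0.05, 20 with DESeq2, 4 at McClures Beach only and 1 to 14 with 1 animal left out. Tube feet gave 1 at 0.05, 4 with DESeq2 and 0 throughout leaving out 1 animal. Caecum gave 1 with batch as a covariate and 2 to 3 with 1 animal left out. The interaction gave 2 at 0.05, 4 with DESeq2, 0 at McClures Beach only (added after seeing the data) and 0 to 1 with 1 animal left out.

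Small against x-large dermis gave 1 with DESeq2, 5 without a filter and 2 with batch, and 0 with any animal left out. The wider size groups in dermis gave 4 at 0.05, 2 with DESeq2, 13 without a filter, 4 with batch, 1 at McClures Beach only and 0 to 2 with 1 animal left out. Small against x-large tube feet gave 6 at 0.05, 8 with DESeq2, 5 without a filter and 0 to 2 with 1 animal left out. The wider groups in tube feet gave 17 at 0.05, 14 with DESeq2, 14 without a filter, 1 with filterByExpr, 5 with batch and 0 to 6 with 1 animal left out. The causes were not tested. All counts of calls in this section are of genes of the set, without the share of all genes called under the same alternative. The same holds for alternatives given with the comparisons above, unless such a share is printed there. A higher or lower count under an alternative is therefore not shown to be particular to the set. No called value of a named gene changed sign in the alternatives run for its comparison.

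The list itself shared 128 of 150 genes when CPM was scaled by TMM, 140 with a pseudocount of 0.5, 123 with 5, 126 with medians in place of means, 142 at McClures Beach only and 142 to 148 with 1 animal left out. Depth limits the low end, where 1 read is 1 to 3 CPM, and 2 symptomatic animals limit each disease comparison.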
